A study of Homo sapiens with 10 samples.

Results

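The first day of Activin A exposure was described by setting the day 1 library against the day 0 library, 2 of the 10 libraries of a course in which human embryonic stem cells (hESCs) of the H1 line were differentiated toward hepatocytes. Of the 12125 genes in the table, the 8629 whose larger value on the 2 days was at least 50 were compared, and the other 3496 were left out as too low. The measure was the difference in log2(value + 1), where the value is a GC-normalized expression value on an arbitrary scale. A difference of 1 is called 2-fold and a difference of 2 is called 4-fold on that scale, which understates the change of low genes. Day 0 cells were undifferentiated H1 hESCs grown as a monolayer on Matrigel in mTeSR1 medium with no added treatment, and that medium itself supplies insulin, FGF2 and TGF-beta. Day 1 cells had been moved to RPMI/B27 medium without insulin and given 100 ng/ml Activin A. There was 1 library per day and no library with the new medium alone, so Activin A and the change of medium cannot be told apart, and no test between the days was possible. The RNA came from whole cultures of 1 cell line, so fewer cells of a type and less RNA per cell cannot be told apart either.

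Activin A is used in culture in place of Nodal, the embryonic ligand that patterns the early germ layers. Both bind type II and type I activin receptors, which phosphorylate SMAD2 and SMAD3. These join SMAD4 and act on DNA with partner factors, of which FOXH1 is the best known in hESCs. Low pathway activity helps to maintain pluripotency, and high activity leads through a mesendoderm state, marked by EOMES and MIXL1, to definitive endoderm (DE). Nodal signalling also switches on its own ligand and its own secreted inhibitors, the LEFTY proteins and CER1.

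The label genes of a first-day Activin A response were EOMES, MIXL1, TGFB1 and LEFTY1, and each of the 4 was higher at day 1. EOMES, MIXL1 and TGFB1 were high enough to be compared only through day 1, so a higher value was built into their choice. The label itself was not tested, because Activin A and the change of medium cannot be told apart. EOMES, a T-box factor of mesendoderm (chr3:27757440-27763989, minus strand), was 7 at day 0 and 1088 at day 1, a log2 difference of 7.09. MIXL1, a homeobox factor of the primitive streak (chr1:226411319-226413565, plus strand), was 6 and 874, a difference of 6.97. TGFB1, the ligand TGF-beta 1 (chr19:41836813-41859831, minus strand), was 9 and 176, a difference of 4.15. The Nodal inhibitor LEFTY1 (chr1:226073982-226076846, minus strand) was already present at day 0 with 174 and stood at 1046 at day 1, a difference of 2.58. These intervals are the table's own. It names no build, and hg19 is the human build in the submitters' processing notes.

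FOXH1 binds a short motif, AATCCAC, and the 250 bases before each gene start were searched for it on both strands in the RefSeq promoters of GRCh38.p14. Of the 88 genes (1.02% of those compared) that were at least 4-fold higher at day 1, 65 had a promoter entry and 7 held the motif, namely ACTC1, GPC4, MIXL1, MSANTD3-TMEFF1, NEBL, SEMA3E and SP5. MSANTD3-TMEFF1 is a readthrough locus whose value is uncertain. By promoter the share was 8.79% of 91, against 1.37% of the 10424 promoters of all compared genes and 1.97% of all 35116 promoters. For the 70 genes (0.811%) at least 4-fold lower it was 3.45% of 87. The SMAD letters CAGACA stood in 13.2% of the promoters of the higher genes, 13.8% of those of the lower genes and 9.79% of those of all compared genes. These are descriptions of letters in a window, and several promoters of 1 gene can share bases. The promoters of 3 of the 7 genes are shown 5′ to 3′ on the gene's strand, with the motif, here on the opposite strand in each, in capitals. MIXL1 (chr1:226223414-226223663, plus strand) and SP5 (chr2:170715087-170715336, plus strand) encode transcription factors of the mesendoderm list, and GPC4 (chrX:133415490-133415739, minus strand) encodes a cell-surface glypican.
MIXL1: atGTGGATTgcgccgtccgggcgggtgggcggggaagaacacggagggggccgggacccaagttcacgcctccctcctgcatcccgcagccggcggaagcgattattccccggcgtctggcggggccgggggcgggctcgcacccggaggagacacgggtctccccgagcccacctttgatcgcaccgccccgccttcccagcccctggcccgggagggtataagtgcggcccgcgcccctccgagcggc
SP5: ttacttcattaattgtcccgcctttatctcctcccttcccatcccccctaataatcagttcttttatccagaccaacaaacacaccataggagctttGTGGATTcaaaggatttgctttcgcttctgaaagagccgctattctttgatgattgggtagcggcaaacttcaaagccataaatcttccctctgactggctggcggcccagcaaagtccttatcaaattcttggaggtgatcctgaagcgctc
GPC4: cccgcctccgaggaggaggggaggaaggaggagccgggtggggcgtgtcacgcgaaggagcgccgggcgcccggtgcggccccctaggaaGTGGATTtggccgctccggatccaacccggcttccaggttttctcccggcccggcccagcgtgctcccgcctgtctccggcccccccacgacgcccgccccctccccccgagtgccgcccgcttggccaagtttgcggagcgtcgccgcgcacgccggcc
The match began 248 bases before the start of MIXL1, 153 before that of SP5 and 160 before that of GPC4. The single listed promoters of EOMES, GSC, NODAL and TGFB1 held neither the FOXH1 nor the SMAD letters, and that of CER1 held the SMAD letters. LEFTY1, LEFTY2, DKK4 and FGF8 have no entry in the promoter table used here.

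Over all 8629 genes, 346 (4.01%) were at least 2-fold higher at day 1 and 406 (4.71%) were at least 2-fold lower. At the 4-fold limit 88 genes (1.02%) were higher and 70 (0.811%) were lower. The median difference was 0.01, with 4352 genes above 0 and 4123 below it. The normalization had given both libraries the same median value, 82, so a shift common to all genes could not appear. Without replicates, the spread between libraries was read from days 9 and 11, which were both kept in one medium with HGF and KGF. Between those days 1.04% of 8444 genes were at least 2-fold higher, 0.568% at least 2-fold lower, 0.118% at least 4-fold higher and 0.107% at least 4-fold lower. That pair holds 2 days of differentiation as well as library noise. The SD of its differences was 0.51 for genes near a value of 50, 0.33 near 100, 0.29 near 200 and 0.26 near 1000. Of all successive pairs it had the fewest genes past 2-fold in either direction, 136 against 752 for the first day. From day 1 to day 2, both under Activin A, 615 genes were past 2-fold. Past 4-fold there were 122 from day 1 to day 2 and 158 on the first day. Each gene was also set against the 500 genes closest to it in level, taking the share of them that moved at least as far from day 9 to day 11. This share was at most 1% for all 88 and all 70 genes past the 4-fold limit, and it was 0 for 64 and 43 of them. Among genes past the 2-fold limit it was at most 1% for 291 of 346 and 339 of 406. These genes were chosen by the same difference. From day 9 to day 11, the 99th percentile of the absolute difference was 1.93 near a value of 50 and 1.05 near 100. For genes at such levels or above, a share of about 1% or less thus follows from the 4-fold limit and is no separate check.

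**Figure D1:**
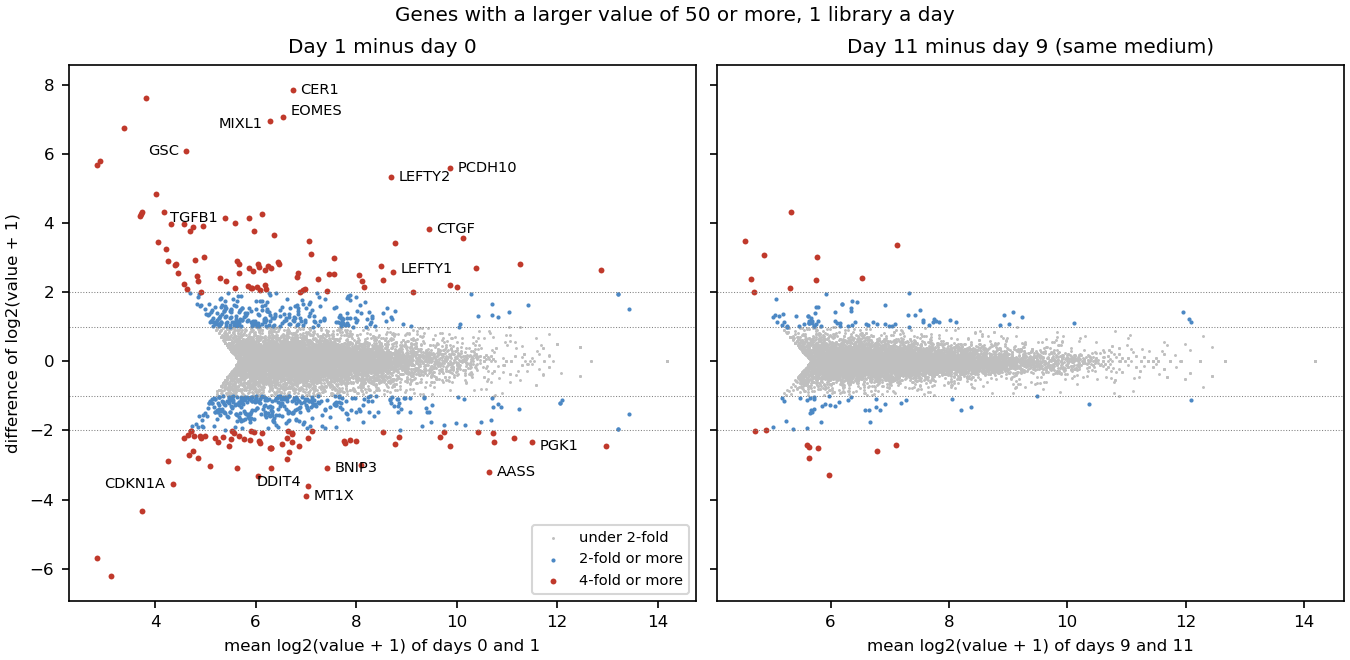
Difference in log2(value + 1) (vertical axis) against mean log2(value + 1) (horizontal axis) for day 1 minus day 0 (left, 8629 genes) and day 11 minus day 9 (right, 8444 genes), 1 library a day, 1 point a gene, with dotted lines at 2-fold and 4-fold. On the left 88 genes lie above the upper 4-fold line and 70 below the lower, and on the right 10 and 9 do.

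The ligands and secreted inhibitors of the Nodal pathway were higher as a group. A value of at least 50 was reached by 8 of the 11 listed genes in the table. Of these 7 were at least 2-fold higher, 5 of them with at least 50 already at day 0, and 0 were lower. The list's median difference was 2.14 against 0.01 over all genes. From day 9 to day 11 the list's median was -0.50. A gene that was low at day 0 reached 50 only by being higher at day 1, so counts and medians of lists are given here as descriptions. Among all genes 198 of the 346 past 2-fold upward and 63 of the 88 past 4-fold were under 50 at day 0. The same limit holds for lower genes, as 209 of the 406 past 2-fold downward and 47 of the 70 past 4-fold were under 50 at day 1. CER1, a secreted inhibitor of Nodal, BMP and WNT, was 6, 1638, 18734 and 18734 over days 0 to 3, and its first-day difference of 7.87 was the largest of all 8629 genes with a pseudocount of 1. With a pseudocount of 0.1 those of MSANTD3-TMEFF1, DKK4 and FGF8, which were listed at 0 at day 0, came out larger. The value 18734 is the maximum that the normalization assigns, and 10 genes hold it in every library. LEFTY2, the close paralog of LEFTY1, was 64, 2636, 574 and 6495 at days 0, 1, 2 and 3, a first-day difference of 5.34. LEFTY1 was 174, 1046, 1157 and 4861 on the same days. The 2 LEFTY genes lie close together and are nearly identical in sequence, so the split of reads between them is uncertain, and both were higher at day 1 than at day 0.

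NODAL itself was 60, 261, 462 and 488 over days 0 to 3, with a first-day difference of 2.10. The related ligand GDF3 was 66 and then 194, and day 1 was its highest value of the 10 days. TDGF1, which encodes the Nodal co-receptor CRIPTO, was 1044 and then 2638, also its highest value. FST, encoding follistatin, which binds and blocks activin, was 26 and then 121. Ligand, co-receptor and inhibitors were thus all higher on the same day, while the follistatin-related FSTL1 stood at 1088 and 1089. INHBA, which encodes the activin A subunit, was listed at 0 on days 0 to 3.

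Most receptors and intracellular parts of the pathway were within 2-fold. Of 21 genes in the table, 19 reached 50, of which 1 was at least 2-fold higher and 0 lower, with a median difference of 0.12. The type II receptor ACVR2B was 345 and 376, and the type I receptor ACVR1B was 92 and 133. SMAD2 was 214 and 232, SMAD3 was 88 and 66, SMAD4 was 190 and 178, and the SMAD partner FOXH1 was 200 and 162. None of these differences reached 2-fold in either direction. The gene past the limit was ENG, encoding the TGF-beta co-receptor endoglin, with 8 and 52, which reached 50 only through day 1. Under 50 on both days, the type I receptor ACVR1C was 36 and 8, a difference of -2.04 that 0.2% of level-matched genes reached from day 9 to day 11. Feedback genes that TGF-beta signals commonly raise were below the 2-fold limit too. The inhibitory SMAD7 was 116 and 138, PMEPA1 was 104 and 194 with a difference of 0.89, and the SMAD repressor SKIL was 462 and 333.

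Mesendoderm transcription factors were low at day 0. Of 9 members in the table, 5 reached 50, namely EOMES, MIXL1, GSC, SP5 and OTX2, and each did so only through its day 1 value. A difference was therefore built into their choice, and their values are given without a count or median. GSC, the organizer homeobox factor goosecoid, was 2, 202, 342 and 315 over days 0 to 3. SP5, a zinc finger factor known as a WNT target, was 2, 86, 159 and 72. OTX2, a homeobox factor of epiblast, anterior endoderm and forebrain, was 22, 292, 576 and 936. EOMES went on to 1435 and 1279 at days 2 and 3 and MIXL1 to 1022 and 696, so for both the step into day 1 was far larger than the steps to days 2 and 3. LHX1, another organizer factor, was listed at 0 on day 0 and stood at 42, 512 and 266 on the next 3 days, under the limit of 50 on the first day. The posterior factor CDX2 was listed at 0 on days 0 to 3. Other members of the list, such as T (brachyury) and MESP1, were not analysed here.

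Later DE genes were mostly not yet present. Only 5 of 15 listed genes had a value of at least 50 by day 1. SOX17, a defining DE factor, was 2 on days 0 and 1, then 745 and 790 on days 2 and 3. GATA4 was 6 on days 0 and 1, then 160 and 268. The chemokine receptor CXCR4, used to sort DE cells, was 5 and 0, then 157 and 568. FOXA2, a forkhead factor of endoderm, was listed at 0, then stood at 42, 200 and 190, and HHEX, a homeobox factor of anterior endoderm, was 6, 18, 106 and 139. The genes thus differed by day, with EOMES and MIXL1 near their highest values at day 1, FOXA2 and LHX1 low but present, and SOX17, GATA4 and CXCR4 without a higher value until day 2. GATA6, FGF17 and CYP26A1 reached 50 only through day 1, so a higher value was built into their choice. GATA6, a zinc finger factor of endoderm, was 2, 59, 576 and 642. FGF17 was 3, 80, 1386 and 2426, and CYP26A1, which breaks down retinoic acid, was 5, 56, 1216 and 3434. For these 3 the steps into day 1 and day 2 were both large. The receptor KIT was 81 and 154, below the 2-fold limit on this scale.

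**Figure D2:**
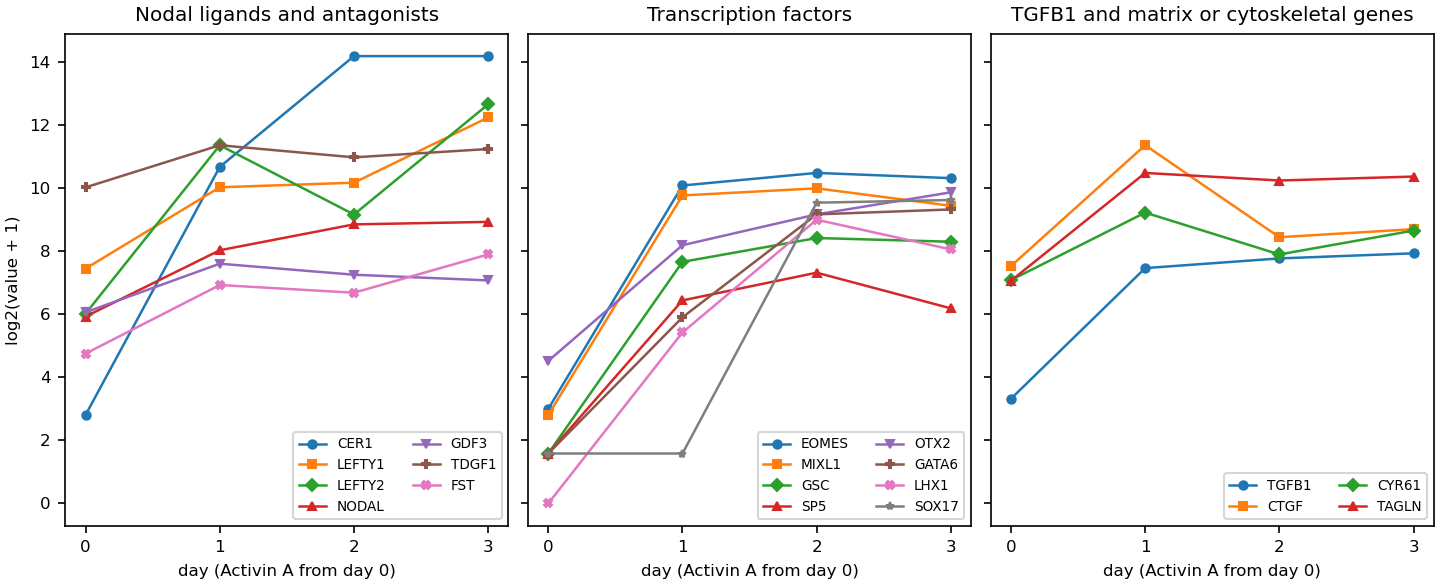
log2(value + 1) at days 0, 1, 2 and 3 (1 library a day, 1 line a gene) for Nodal ligands and antagonists, transcription factors, and TGFB1 with matrix and cytoskeletal genes. EOMES goes from 7 to 1088 and MIXL1 from 6 to 874 within the first day, SOX17 stays at 2 until day 2, and CTGF is 2640 at day 1 and 348 at day 2.

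TGFB1 continued to 218 and 244 at days 2 and 3. Among the TGF-beta ligands and matrix targets 10 of 14 genes in the table reached 50, of which 4 were at least 2-fold higher and 1 was at least 2-fold lower, with a median of 0.18. CTGF, a matricellular growth factor, was 184, 2640, 348 and 416 over days 0 to 3. Its relative CYR61 was 135, 599, 238 and 403. Both had their highest value of days 0 to 3 at day 1. TAGLN, the actin-binding protein transgelin, was 133, 1434, 1214 and 1324 and so kept its day 1 level. The collagen gene COL1A1 was lower, 294 and then 122, and TGFB2 was listed at 0 on days 0, 1 and 2.

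In the WNT list 10 of 21 genes in the table reached 50, of which 6 did so at day 0. None of these 6 was at least 2-fold higher and 1 was at least 2-fold lower. The 4 genes past 2-fold upward, WNT3, DKK4, APCDD1 and FRZB, reached 50 only through day 1, so their values are descriptions. WNT3, the ligand needed for primitive streak formation, was 6, 94, 138 and 158 at days 0 to 3. The WNT inhibitor DKK4 was listed at 0 on day 0 and then stood at 108, 200 and 16, and the inhibitor APCDD1 was 28, 125, 124 and 112. FRZB, a secreted frizzled-related protein, was 24 and 64, while SFRP1 was lower, 780 and then 373. DKK1 stayed at 2 through day 1 and reached 176 at day 2, and the target gene AXIN2 was 49, 42, 128 and 128 at days 0 to 3. The ligand WNT3 and the inhibitors DKK4 and APCDD1 thus had higher values at day 1, as did the WNT target SP5 of the mesendoderm list. AXIN2 was first higher at day 2.

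FGF8, an FGF ligand of the primitive streak, was listed at 0 on day 0 and stood at 51, 46 and 72 on days 1 to 3. In the list of FGF ligands, receptors and ERK feedback genes 18 of 19 genes reached 50, with 2 past 2-fold upward, both only through day 1, 0 downward and a median of -0.11. Beside FGF8 this was the ERK phosphatase DUSP4, 34 and then 70, a difference that 4.2% of its level-matched genes also reached between days 9 and 11. DUSP6 was 1280 and 1185, SPRY4 was 854 on both days and FGF2 was 248 and 157. Of the BMP list 7 of 15 genes reached 50, and 2 of the 7 were at least 2-fold higher. ID1 was 128 and 324 and ID3 was 204 and 492, both encoding helix-loop-helix inhibitors that BMP signals raise. BMP2 was 3, 20, 343 and 450 and BMP4 was 3, 7, 20 and 20, both under 50 at day 1.

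Immediate early genes, which respond to growth factors within minutes, were higher as a list. Of 13 genes in the table, 10 reached 50, and these 10 were higher, 5 of them at least 2-fold (4 with at least 50 at day 0), with a median of 1.06 against -0.03 from day 9 to day 11. JUN, an AP-1 factor, was 28, 182, 65 and 102 at days 0 to 3. EGR1 was 73, 244, 10 and 33, and FOS was 77, 154, 50 and 42. IER3, an early response gene linked to survival, was 137, 936, 901 and 1022, and MYC was 210, 466, 221 and 121. JUN, EGR1, FOS and MYC were lower again by day 2, and IER3 stayed near its day 1 value. EGR1 was also 194 at day 9 and 19 at day 11, and FOS was 59 and 14. Both thus moved further between those days than on the first day.

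The core pluripotency factors POU5F1 and NANOG were not lower after 1 day. POU5F1 was 4861, 6498, 2640 and 1280 over days 0 to 3, and NANOG was 460, 582, 323 and 286. SOX2 was lower already at day 1, with 371, 132, 146 and 82, a first-day difference of -1.48. The 3 factors therefore differed in the day of their first lower value. Of 21 pluripotency genes, which all reached 50, 1 was at least 2-fold higher and 5 were at least 2-fold lower, with a median of -0.14. The surface protein genes THY1 and PODXL, both used to mark hESCs, were 2164 and 398, and 3433 and 823. PHC1, a Polycomb subunit, was 6494 and 2798, and TERF1, a telomere-binding protein, was 6502 and 2972. DPPA4 was 2426 and 1214 and missed the limit narrowly, and LIN28A was 2971 and 2800. FOXD3 was the member that was higher and reached 50 only through day 1, 23 and then 72, with 36 and 26 on the next days. By day of highest value, 10 of the 21 peaked at day 0 and 6 at day 1, with no share over all compared genes given beside them.

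Genes of epithelial and mesenchymal state had mostly not moved at day 1. Of the 18 of 21 epithelial genes that reached 50, 0 were at least 2-fold higher and 1 was at least 2-fold lower, with a median of 0.07. CDH1, E-cadherin, was 697, 808, 484 and 342 at days 0 to 3, so its first lower value came at day 2. The tight junction gene CLDN4 was lower at once, 100 and then 32. Under 50 on both days, CLDN3 was 30 and 3, and CRB3 was 26 and 34. Of the 12 of 17 mesenchymal genes that reached 50, 2 were at least 2-fold higher, with a median of 0.41. CDH2, N-cadherin, was 134, 489, 2168 and 3431, and CDH11, another cadherin, was 11, 50, 18 and 3. VIM, vimentin, was 286 and 302 before 1437 and 2168, and FN1, fibronectin, was 852 and 804 before 2426 and 3428. CDH2 was therefore higher a day before VIM and FN1 were. The factors that repress CDH1 were under 50 on both days. SNAI1 with 4 and 23 and ZEB1 with 1 and 22 had higher values at day 1, while SNAI2 was 4 and 5 and ZEB2 was listed at 0 on both days.

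**Figure D3:**
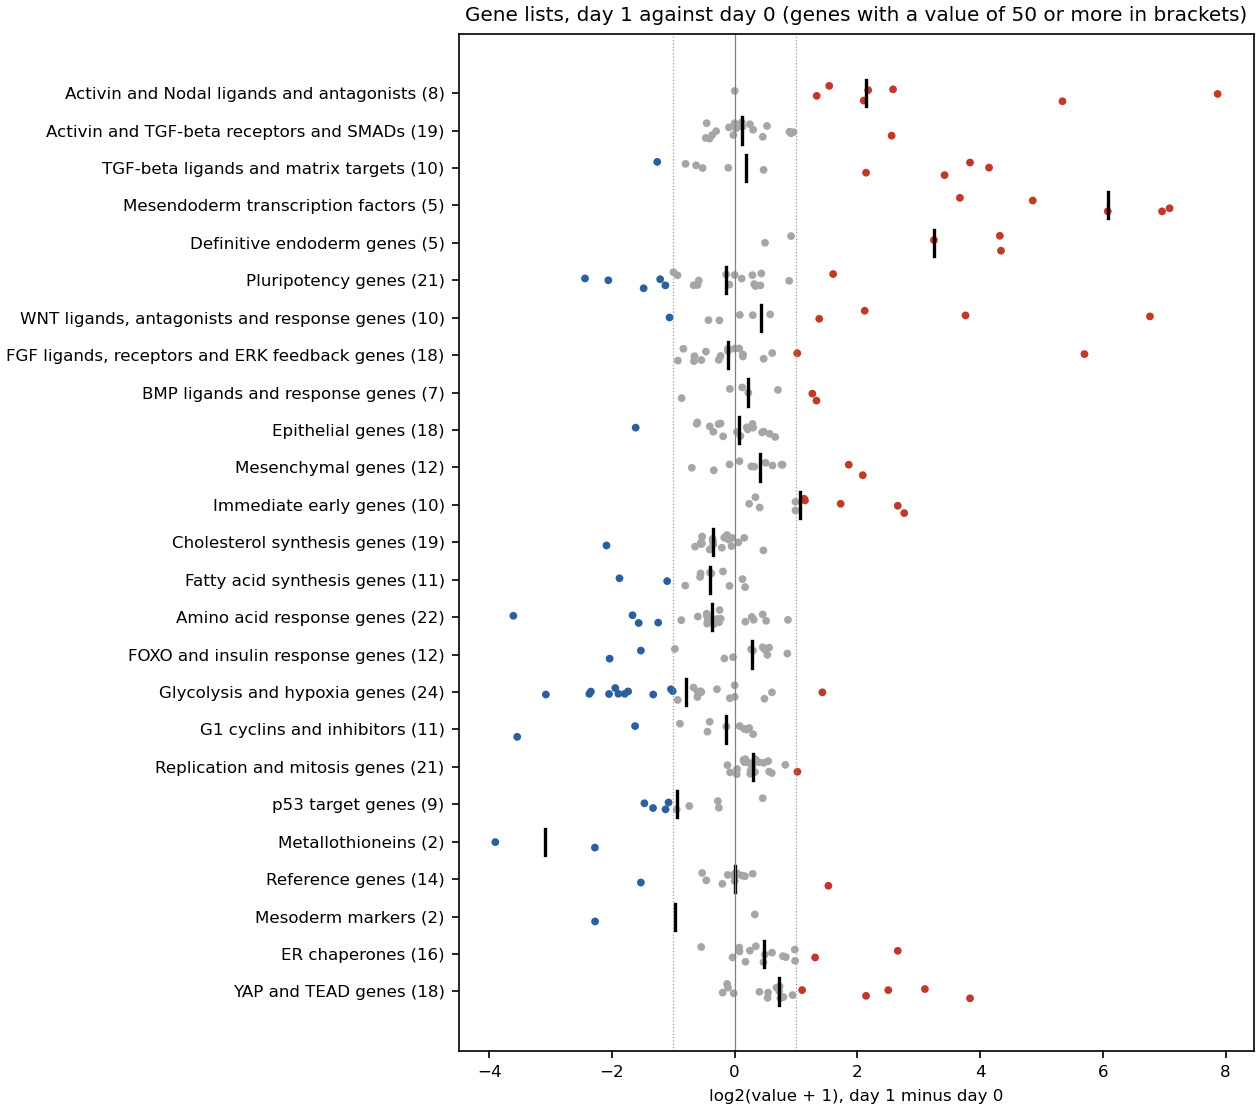
log2(value + 1) at day 1 minus day 0 for each gene with a value of at least 50 (points, red for 2-fold or more higher, blue for 2-fold or more lower) in 25 gene lists, with the list median as a black bar and the number of genes in brackets. The Nodal ligands and antagonists (median 2.14) lie to the right, as do the mesendoderm factors, which all reached 50 only through day 1, and the glycolysis and hypoxia genes (-0.80), p53 targets (-0.95) and metallothioneins (-3.09) to the left. Both metallothioneins and the 4 p53 targets past 2-fold reached 50 only through day 0.

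Among lower genes, those of glycolysis and the hypoxia response formed the largest listed group. Of 25 genes in the table, 24 reached 50, of which 11 were at least 2-fold lower and 1 was at least 2-fold higher, with 19 below 0 in all and a median of -0.80. The same list had a median of -0.03 from day 9 to day 11, with 0 genes past 2-fold. PGK1, phosphoglycerate kinase, was 6496, 1279, 2164 and 1734 over days 0 to 3. LDHA, which makes lactate from pyruvate, was 2798, 676, 1130 and 1022. The aldolase gene ALDOC was 371, 99, 88 and 62, and the enolase gene ENO2 was 500, 96, 88 and 124. Several enzymes of 1 pathway were thus lower on the same day and did not regain their day 0 level by day 3.

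Further genes of the list were lower too. BNIP3, a mitochondrial protein that hypoxia raises, was 497, 58, 142 and 312 at days 0 to 3, a first-day difference of -3.08. VEGFA, the vascular growth factor, was 179 and 51, and ADM, adrenomedullin, was 127 and 50. The glucose transporter gene SLC2A1 was 1492 and 726, hexokinase 2 (HK2) was 440 and 218, and the regulatory enzyme gene PFKFB4 was 89 and 26. SLC16A3, the lactate exporter MCT4, was not in the list and was among the 20 lowest differences, with 144 and 16. In all 3 genes of the list were above 0. The 1 past 2-fold was PDK1, a kinase that blocks pyruvate entry into mitochondria and is also a hypoxia gene, with 185 and 500. Another was EGLN3, with 44 and 62, which reached 50 only through day 1. LDHB stood at 18734 and PGAM1 at 2638 on both days.

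**Figure D4:**
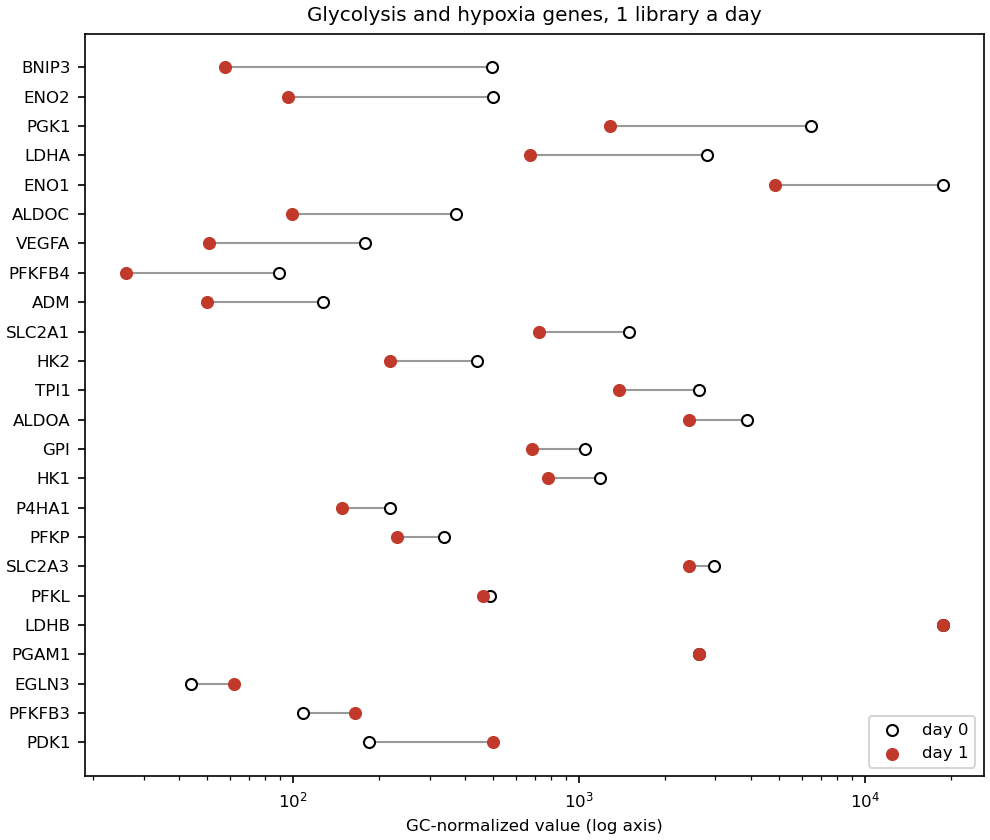
Values of the 24 glycolysis and hypoxia genes on a log axis at day 0 (open circles) and day 1 (red), 1 library a day, ordered by difference. BNIP3 goes from 497 to 58 and PGK1 from 6496 to 1279, while PDK1 goes from 185 to 500 and LDHB and PGAM1 have the same value on both days.

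Some of these values rest on steps between shared levels. At each of the top 10 levels, from 2164 upward, the normalization gives about 10 genes nearly the same value. The step from 18734 down to the next level is 1.53 on the log2 scale. ENO1, enolase 1, was 18734 and 4861, and PKM2, the pyruvate kinase gene under its older symbol, was 18734 and 3431. PKM2 was outside the lists and was named after its value was seen. GAPDH was 18734 and 6493, that same step. The day 1 values of CTGF, LEFTY2, TDGF1 and PCDH10 lie in the top 10 levels too. Of the genes past 4-fold, 8 of the 88 higher and 8 of the 70 lower have a value there. Values also recur below 2164, such as 1638 for CER1 at day 1 and FASN at day 9. Likewise 1088 was the value of EOMES at day 1 and of FSTL1 at day 0. Genes on such lower levels were not counted. Leaving out all genes with a value in the top 10 levels left the counts past each limit within 1.5 times. Glycolytic genes also have many pseudogenes with which reads could be shared.

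The core of the hypoxia response element, ACGTG, was searched in the same way, after the lower genes had been seen. It stood in 42.1% of the 38 promoters of the glycolysis and hypoxia list, in 13 of 22 genes, and in 36.8% of the 87 promoters of the genes at least 4-fold lower. The share was 16.5% for the genes at least 4-fold higher, 23.2% for all compared genes and 18.5% for all promoters. The letters are short and also lie within E-boxes bound by other factors. The promoters of 3 genes of this list are shown with the letters, on either strand, in capitals, for PGK1 (chrX:78103998-78104247, plus strand), LDHA (chr11:18394313-18394562, plus strand, 1 of 2 listed promoters) and ALDOC (chr17:28576896-28577145, minus strand).
PGK1: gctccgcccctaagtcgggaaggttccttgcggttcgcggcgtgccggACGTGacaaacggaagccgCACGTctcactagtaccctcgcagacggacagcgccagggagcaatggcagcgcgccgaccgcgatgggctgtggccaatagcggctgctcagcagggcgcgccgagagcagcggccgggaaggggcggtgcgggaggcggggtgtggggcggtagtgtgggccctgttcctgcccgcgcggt
LDHA: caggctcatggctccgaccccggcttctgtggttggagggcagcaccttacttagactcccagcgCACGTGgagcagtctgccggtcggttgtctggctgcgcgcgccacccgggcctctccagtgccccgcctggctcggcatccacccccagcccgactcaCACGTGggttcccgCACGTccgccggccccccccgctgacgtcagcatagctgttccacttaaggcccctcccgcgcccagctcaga
ALDOC: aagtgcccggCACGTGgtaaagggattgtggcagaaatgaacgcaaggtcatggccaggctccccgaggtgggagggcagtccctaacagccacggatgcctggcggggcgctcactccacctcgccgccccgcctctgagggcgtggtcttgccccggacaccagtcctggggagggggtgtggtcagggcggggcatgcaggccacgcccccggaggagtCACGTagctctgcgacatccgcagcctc
PGK1 held 2 matches, 202 and 183 bases before its start, LDHA held 3 at 185, 87 and 73 bases, and ALDOC held 2 at 240 and 28 bases. The list's promoters held the FOXH1 letters in 0 of 38.

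Most p53 target genes and both metallothioneins had lower values. Of the 9 of 12 p53 target genes that reached 50, 4 were at least 2-fold lower, 8 were below 0 and the median was -0.95. PHLDA3 was 82 and 32, ZMAT3 was 60 and 21, TP53INP1 was 75 and 35 and FDXR was 106 and 48. These 4 were under 50 at day 1, and 0.2% to 4.4% of level-matched genes moved as far from day 9 to day 11. They reached 50 only through day 0, so a lower value was built into their choice, and the count and median are descriptions. CDKN1A, the cell cycle inhibitor p21 and also a p53 target, was 69, 5, 36 and 90 at days 0 to 3, so its low value was seen on day 1 and had passed by day 3. MDM2 was 178 and 147, and TP53I3 was the member that was higher, 58 and 80. The metallothionein MT1X was 492, 32, 1 and 1 and MT2A was 130, 26, 2 and 0. Both likewise reached 50 only through day 0. They belong to a family of near-identical genes, and the split of reads between members is uncertain.

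Of the 22 of 26 amino acid response genes that reached 50, 4 were at least 2-fold lower and 0 higher, with a median of -0.37. In all 16 of the 22 were below 0 and 6 above. Under 50 on both days and so left out, ATF5 was 15 and 49, DDIT3 was 14 and 37 and CEBPB was 26 and 48. These differences were reached by 0.8% to 4.8% of level-matched genes from day 9 to day 11. DDIT4, a stress-induced inhibitor of mTORC1, was 462, 37, 80 and 69, a first-day difference of -3.61. CHAC1, a glutathione-degrading enzyme, was 110 and 34, STC2, a secreted glycoprotein, was 274 and 92, and SESN2 was 139 and 58. The factor ATF4 was 1488 and 1088, and the amino acid transporter SLC7A5 was 1185 and 2164. Lipid synthesis genes were mostly slightly lower. Of 19 cholesterol genes 16 were below 0, with a median of -0.35, and 1 was at least 4-fold lower, at -2.09. Of 11 fatty acid genes 9 were below 0, with a median of -0.40. Over all 8629 compared genes 4123 were below 0. The acetyl-CoA enzymes ACSS2 and ACACA were 304 and 82, and 668 and 311.

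The medium of day 1 had no insulin, and FOXO and insulin response genes were mixed. Of the 12 of 18 genes that reached 50, 0 were at least 2-fold higher and 2 were at least 2-fold lower, with a median of 0.28. IRS1 was 100 and 148, IRS2 was 58 and 106 and the insulin receptor INSR was 86 and 106. The lower genes were IGFBP2, a secreted binder of insulin-like growth factors, with 1736 and 422, and SESN1 with 100 and 34.

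Genes of replication and mitosis were slightly higher. Of 21 genes 19 were above 0, with a median of 0.29. For 14 of them day 1 was the highest of the 10 days, with no share over all compared genes given beside this count. The replication helicase gene MCM6 was 383 and 779, the 1 gene past 2-fold, and RRM2, a ribonucleotide reductase subunit, was 320 and 568. MKI67 was 522 and 589. From day 9 to day 11 the list's median was 0.37, so a shift of this size was also seen between those days. Among the 11 of 13 G1 cyclins and inhibitors that reached 50 the kinase CDK6 was lower, 76 and then 24, and cyclin D1 (CCND1) was 308 and 353. The median there was -0.14.

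The remaining genes among the 20 largest differences in each direction were of varied function. PCDH10, a protocadherin, was 134, 6502, 4866 and 4866 at days 0 to 3. GADD45B, a stress and TGF-beta response gene, was 15, 308, 100 and 77. ODZ4, which encodes the membrane protein teneurin 4, was 13, 246, 302 and 174. FAM43A was 11, 191, 26 and 14, RASGEF1B was 5, 94, 44 and 66, GCNT4 was 2, 57, 16 and 18, and TBC1D9 was 2, 55, 130 and 169. All 20 largest positive differences, 3.98 to 7.87 in log2, left the gene above its day 0 value at day 3, and 9 of the 20 were higher at day 3 than at day 1. RP11-977G19.10, a clone-named locus, was listed at 0 and then stood at 55.

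On the lower side AASS, an enzyme of lysine breakdown, was 4866, 531, 282 and 238. The endothelin receptor gene EDNRB was 208, 20, 14 and 13, the long non-coding RNA MIAT was 781, 96, 30 and 11, and the glutamate receptor subunit gene GRIN2D was 188, 32, 2 and 6. ZDHHC22 was 259, 36, 14 and 7, C9orf174 was 59, 2, 15 and 4, and the sodium channel gene SCN9A was 51, 6, 0 and 0. STC1, a secreted glycoprotein, was 96, 11, 228 and 1434, so its low value at day 1 preceded a value above day 0. KNDC1 was 76 and 10, PPFIA4 was 65 and 9, and MYLIP was 65 and 10. For these 3, 0.2% of level-matched genes moved as far between days 9 and 11, and for the other 17 of the 20 it was 0. At day 3, 12 of the 20 genes were above their day 1 value and 3 were above their day 0 value.

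A few of the largest differences belong to loci that overlap another gene. MSANTD3-TMEFF1, a readthrough locus, was listed at 0 at day 0 and stood at 197, 0 and 142 on days 1 to 3, while TMEFF1, which lies within it, was 230, 26, 239 and 78. Their sum was 230, 223, 239 and 220, so the total of both did not differ as either alone did. RP11-73M18.2 was 74 and 0, the readthrough ISY1-RAB43 was 51 and 0, and the small structural RNA RN7SL1 was 251 and 40. These values are uncertain. Without the 198 readthrough or clone-named loci among the compared genes, 335 genes were at least 2-fold higher and 361 at least 2-fold lower.

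Genes with higher values at day 1 differed in the day of their peak. Of the 346 genes past the 2-fold limit 127 were highest at day 1, 68 at day 3 and 39 at day 21. Of the 88 genes past the 4-fold limit 22 were highest of all 10 days at day 1, while 13 peaked on day 2, 25 on day 3 and 12 on day 5, and their median value was 23 at day 0 and 179 at day 1. Of the 70 genes at least 4-fold lower 39 had their highest value at day 0 and 14 at day 21, and their median value was 188 and then 32. The genes at least 2-fold lower had the same 2 days most often, 236 of 406 at day 0 and 66 at day 21. The day 0 and day 1 values chose these genes, so a higher gene cannot peak at day 0, nor a lower gene at day 1. No share over all compared genes is given beside these counts, which are descriptions.

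**Figure D5:**
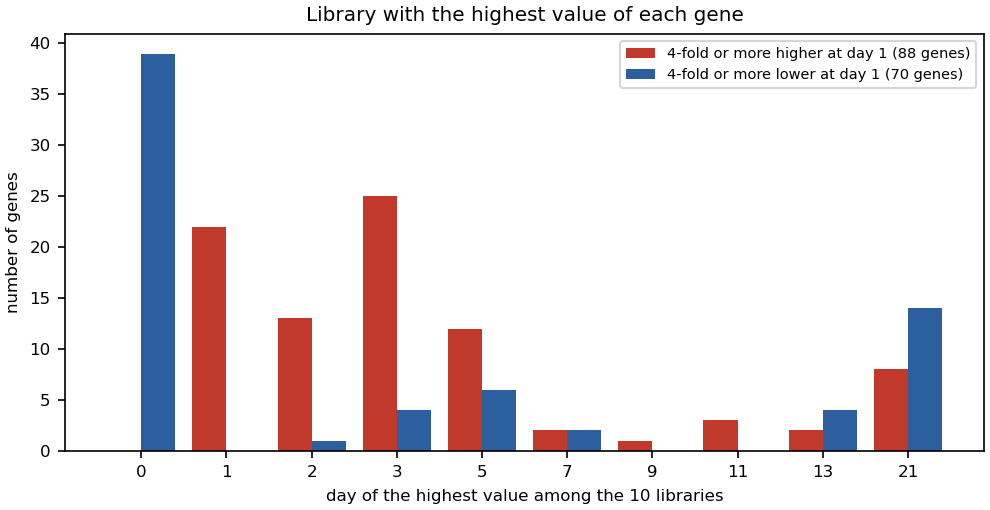
Number of genes (vertical axis) by the day of their highest value among the 10 libraries (horizontal axis), for the 88 genes at least 4-fold higher (red) and the 70 at least 4-fold lower (blue) at day 1. Day 3 holds the most of the higher genes (25), and day 0 (39) and day 21 (14) hold the most of the lower ones. By their choice a higher gene cannot peak at day 0, nor a lower gene at day 1.

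Markers of other cell types were looked at on both days. The 10 hepatic markers were all under 50, with a highest value of 40 and a summed value of 67 at day 0 and 122 at day 1, and 2 of them, SERPINA1 and TF, were listed at 0 on both days. Of 6 mesoderm markers 2 had a value of at least 50, with a summed value of 573 and then 179. That difference was in KDR, a VEGF receptor, with 517 and 106, while the other 5 summed to 56 and then 73. PDGFRB was 42 and 53, and FOXF1 was listed at 0 on both days. Of 5 trophoblast and amnion markers GABRP, a GABA receptor subunit, was 1642 and 454, and KRT7 was 12 and 0, with a summed value of 1729 and then 513. The neural marker NES was 768 and 980 and was the 1 marker of its list in the table. The part of such cells in the differences was not tested. Of 14 reference genes 12 were within 2-fold, with a median of 0.00, and the 2 past it, GAPDH and TUBB (6498 and 18734), each moved by 1 step of the top level.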

How the data were processed

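RNA libraries from H1 hESCs, 1 per day, were aligned by the authors with Bowtie2 (2.2.0), quantified with RSEM (1.2.17) and normalized for GC content with EDASeq. The authors deposited the result as 1 table of whole-number scores per gene, which are not read counts. Library totals were 2330948 to 2362740 and the maximum 18734 in each of the 10 libraries, so read numbers cannot be recovered from the scores. The methods describe a MiSeq run of low average depth, which limits the precision of low scores. The submitters' notes name hg19 and mm10, and the methods give the mouse build for the transcriptome.

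Days were taken from the labels. Differences were computed on log2(score + 1) with Python (3.11.15), numpy (2.4.6) and pandas (2.3.3) for genes whose larger score was at least 50, and the scripts were tested on simulated data. With 1 library a day no test was made. Named genes were the 20 largest differences in each direction, the 4 label genes, the study's marker panel, and from each of 26 lists the members past 2-fold and up to 4 others, and further list members and motif carriers were named for their role after their values were seen. The members and lists were chosen with earlier results of these data known. Alternatives were the pseudocount, the minimum score, library scaling, the matched pair of days and the number of matched genes. Some items of the lists are not reported here.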

Additional observations from a re-analysis of the deposited data

How the results depend on the processing

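The counts past each limit depended on the minimum score. A minimum of 20 gave 545 genes past 2-fold upward at day 1, 156 past 4-fold upward and 130 past 4-fold downward. With at least 100, 211 were at least 2-fold higher and 261 at least 2-fold lower, and with at least 200 the counts were 122 and 142 at 2-fold and 40 and 34 at 4-fold. With no minimum they were 738 and 834 at 2-fold and 215 and 218 at 4-fold. A pseudocount of 16 left 36 genes at least 4-fold lower. Pseudocounts of 0.1 and 5, scaling by the median of ratios or by the total, and leaving out the top levels or the readthrough and clone-named loci (an alternative chosen after seeing the data) kept each count within 1.5 times. The deposited libraries were already on 1 scale, with a median of 82 on both days and median-of-ratios factors of 1.04 and 1.06. Scaling could therefore change the counts little, and it is no test of the authors' normalization. The size of a difference depended on the pseudocount. Of 41 named genes 36 moved with a pseudocount of 16, 19 with 5 and 6 with 0.1, as MIXL1 from 6.97 to 5.34 and TGFB1 from 4.15 to 2.94 with 16, while none changed direction. With days 1 and 2 as the pair set beside them, at most 2% of level-matched genes moved as far as a named gene, and with days 5 and 7 at most 3.6%. No paired analysis was possible because each day has 1 library. The depth of the libraries, which limits what a low score means, cannot be read from the scores.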

Other observations

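Other gene groups, picked after their values had been seen, also differed on the first day, and are given as values. Of 18 genes linked to YAP and TEAD signalling 5 were at least 2-fold higher and 0 lower, with a median difference of 0.73 in log2(score + 1) and -0.04 from day 9 to day 11. The list holds CTGF and CYR61. AMOTL2, an angiomotin that binds YAP, was 111, 634, 650 and 695 over days 0 to 3. THBS1, the matrix protein thrombospondin 1, was 46, 402, 98 and 70. YAP1 itself was 497 and 823, its partner TEAD1 was 182 and 316, and WWTR1 was 62 and 54.

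Of 16 chaperones and folding enzymes of the endoplasmic reticulum 14 were above 0 and 2 were at least 2-fold higher, with a median of 0.48 and -0.02 from day 9 to day 11. HSPA5, the chaperone BiP, was 872, 2165, 2430 and 2796 at days 0 to 3, and CALR, calreticulin, was 1216, 2168, 2434 and 2168. HSP90B1 was 2968, 18734, 4855 and 4855, values that all lie in the shared top levels. EDEM1 was lower, with 88 and 60.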
